A study of Mus musculus with 8 samples.

Results

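The genes described here are 38 enzymes, transporters and regulators of glycolysis, gluconeogenesis and fructose metabolism, measured in the lower crypts of the mouse jejunum. They were taken by name, as every probe on the array whose gene name is one of the 38. A gene with several probes is represented by its brightest one. All 38 were found among 30214 gene names, on 57 probes, and 36 of them entered the test of 19485 genes. By their accessions, the genes named Pgm1 and Pgm2 in the files carry the exchanged symbols Pgm2 and Pgm1 in the RefSeq gene table of GRCm38.p6, and Pkm2 is Pkm there. The file names are kept here.

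All 8 mice carried one Lgr5EGFP-IRES-CreERT2 allele and one normal Lgr5 allele, were 4 to 6 weeks old and received 80 mg/kg etoposide into the tail vein. Etoposide is a topoisomerase II poison that leaves breaks in DNA. A 24 h fast preceded the injection in 4 mice, and the other 4 were fed, with 2 labelled males and 2 labelled females in each group. Every mouse went back to moistened food pellets after the injection, and the intestine was taken 3 h later, so a fast and the food after it cannot be told apart. No mouse went without etoposide. Lower crypts were cut from methacarn-fixed sections by laser capture, and the RNA of each mouse was labelled with Cy5 and put on 1 single-colour array.

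Glycolysis splits glucose to pyruvate, which is turned to lactate or burned in mitochondria, and gluconeogenesis runs back to glucose through its own enzymes wherever the forward step cannot be reversed. Hexokinase, phosphofructokinase and pyruvate kinase hold the one-way steps of glycolysis. Pyruvate carboxylase, phosphoenolpyruvate carboxykinase, fructose bisphosphatase and glucose 6-phosphatase bypass them. Fructose enters below phosphofructokinase, starting with ketohexokinase. In the small intestine the fructose and gluconeogenic enzymes are known from absorptive enterocytes, and the dividing crypt is known for lactate production.

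The sequences of 4 promoters are shown because Fbp1, Khk and Got1 had the 3 smallest p-values among the members, while Slc2a1 is the glucose transporter that stood lower in the same fasted arrays. Each is the 250 bases before the annotated start, from RefSeq on GRCm38.p6, and capitals mark matches, on either strand, to the motifs named after them. They lie at chr13:62888283-62888532 on the minus strand (Fbp1), chr5:30921309-30921558 on the plus strand (Khk), chr19:43524606-43524855 on the minus strand (Got1) and chr4:119108495-119108744 on the plus strand (Slc2a1).
Fbp1: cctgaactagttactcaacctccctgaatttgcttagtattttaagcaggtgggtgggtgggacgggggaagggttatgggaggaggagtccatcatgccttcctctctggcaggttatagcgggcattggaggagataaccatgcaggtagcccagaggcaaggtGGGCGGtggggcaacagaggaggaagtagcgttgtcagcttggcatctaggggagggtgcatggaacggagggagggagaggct
Khk: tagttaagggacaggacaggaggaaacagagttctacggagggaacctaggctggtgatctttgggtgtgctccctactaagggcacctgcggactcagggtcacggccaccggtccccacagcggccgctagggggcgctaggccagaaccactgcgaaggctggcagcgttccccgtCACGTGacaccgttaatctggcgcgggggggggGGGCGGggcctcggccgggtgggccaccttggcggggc
Got1: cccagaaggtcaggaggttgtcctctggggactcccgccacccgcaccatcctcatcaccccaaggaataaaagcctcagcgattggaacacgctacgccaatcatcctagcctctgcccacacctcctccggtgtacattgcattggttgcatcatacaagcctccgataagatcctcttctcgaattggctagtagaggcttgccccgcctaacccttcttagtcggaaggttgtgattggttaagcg
Slc2a1: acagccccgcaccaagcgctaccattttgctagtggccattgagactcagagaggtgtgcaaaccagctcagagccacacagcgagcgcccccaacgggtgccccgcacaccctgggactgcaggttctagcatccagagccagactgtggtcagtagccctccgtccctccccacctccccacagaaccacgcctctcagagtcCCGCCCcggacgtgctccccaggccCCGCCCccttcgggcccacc

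Of the 38 members 37 had a promoter in the table, with 58 start sites in all. The E-box CACGTG, searched on both strands, stood in 12.1% of the members' windows and in 6.02% of all 32851 windows of that length. It was present upstream of Khk, Fbp2, Ldha, Pcx, Pfkfb2, Pfkfb3 and Pfkm. The GC box GGGCGG, also searched on both strands, stood in 50% of the members' windows against 32.7% of all windows, Fbp1, Khk and Slc2a1 included. The cyclic AMP response element TGACGTCA stood in 3.45% against 1.55%, upstream of Ldha and Mdh2, and CAAAGT in 12.1% against 12.6%. The Got1 window held no match to these 4 motifs. No match to one motif overlapped a match to another in the members' windows. A match is a string of letters, not a shown binding site.

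Signals are given as log2 of the processed spot intensity minus the 75th percentile of its array, so a value of 0 marks a probe at that percentile, and levels of different probes are not compared. The share of probes that stood clear of background was 53.6% to 65.6% on the fasted arrays and 53.2% to 62.8% on the fed arrays, and no spot was saturated. On each of the 3 slides that held both groups the fasted array had the higher share. The most distant array was fasted replicate 3, which alone was scanned on the later day and whose correlations with the rest, taken across genes, were 0.827 to 0.925. The array labelled female as fed replicate 4 went against its label. Xist, which is transcribed from the silenced X chromosome, had an unscaled log2 signal, before the percentile was subtracted, of 4.69 there, not well above background, and of 13.09 to 13.69 on the other arrays labelled female. The Paneth cell markers of the crypt base were all measured (13 of 13), while Lgr5, the stem cell receptor gene that the allele interrupts, did not stand clear of background on any of the 8 arrays. The other 15 listed markers of crypt base stem cells stood clear of background on all 8 arrays.

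Within the 36 tested members 28 had higher and 8 lower signals in fasted than in fed crypts, with a median log2 difference of 0.29, while over all 19485 genes the median was -0.06 and 44.4% were higher. The differences ran from 1.40 for Khk to -0.79 for Pfkfb3. In limma's test with labelled sex as a term 0 members passed the Benjamini-Hochberg threshold of 0.05, and 0% of all genes did. The smallest adjusted p was 0.787. An unadjusted p under 0.05 was found for 11 members, all higher in fasted crypts, where 3.93% of all genes were higher and 2.02% lower at that level (5.95% in both directions, 1159 genes). Without fasted replicate 1 the members with such a p numbered 7. In 6 members every fasted array lay above every fed array, and in 0 members below, against 2.98% and 2.1% of all genes (5.08% either way). No list test was made, since these genes were chosen with earlier results of these arrays known. Without fasted replicate 3 and fed replicate 4, the median was 0.24 and 25 of 36 members were higher.

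**Figure D1:**
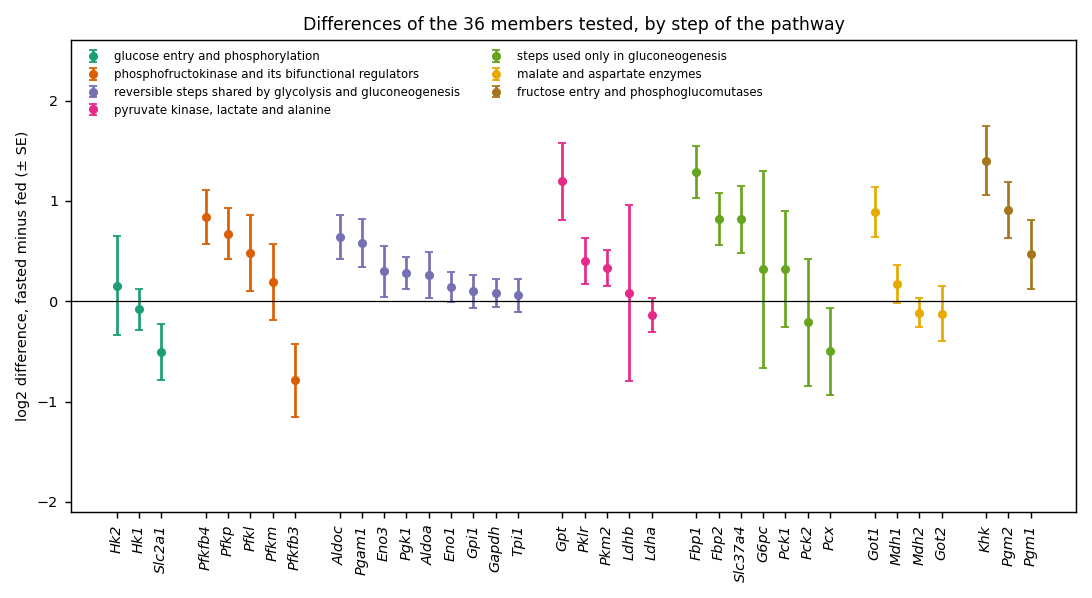
Log2 difference between fasted and fed crypts (vertical axis, fasted minus fed) for the 36 members tested, grouped by step of the pathway, with bars for the standard error of limma's fit. The fructose enzyme Khk at 1.40 and Fbp1 at 1.29 stand highest, Pfkfb3 at -0.79 lowest, and none passed the adjusted threshold.

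Markers of other cell types also gave differences between the groups. Of 33 measured markers of absorptive enterocytes, which mature above the crypt base, 32 were higher in fasted crypts, with a median log2 difference of 0.98. Over all genes 44.4% were higher. In 13 of the markers every fasted array lay above every fed array, against 2.98% of all genes. The summed linear signal of the 33 markers, in multiples of the 75th percentile, was 257.6 to 392.7 on the fasted arrays. On the fed arrays it was 158.0 to 244.1. Of the 27 markers well above background on all 8 arrays, 26 were higher and the median was 0.83. The brush border enzyme Sis differed by 2.39 (SE 1.24) with overlapping groups, and was well above background on 4 fasted and 3 fed arrays. The amino acid transporter Slc6a19 was well above background on all 4 fasted arrays and on 1 fed array. Ada, at -0.48, was the 1 enterocyte marker that was lower, and Cubn was the 1 not well above background on any array. Paneth cell markers ran the other way, being lower in 12 of 13, where 10825 of all 19485 genes were lower. The Paneth sums were 551.8 to 702.0 on the fasted arrays and 710.9 to 997.1 on the fed arrays. Goblet cell markers were lower in 10 of 12, leukocyte markers in 7 of 9 and endothelial markers in 5 of 7. Tuft cell markers were higher in 6 of 7 and enteroendocrine markers in 7 of 11. Crypt base stem markers were lower in 8 of 15, Olfm4 at -1.11 being the 1 without overlap. No marker of any of these lists passed over all genes. The part of these cells in the differences below was not tested, and in such bulk captures fewer cells of a type and less RNA per cell cannot be told apart.

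**Figure D2:**
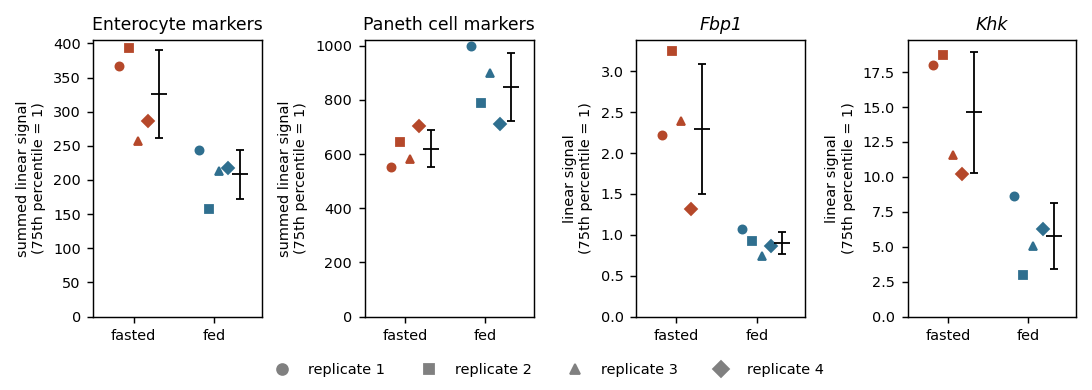
Summed linear signal of the measured enterocyte and Paneth cell markers, and the linear signals of Fbp1 and Khk (vertical axes, multiples of each array's 75th percentile), on each fasted and fed array. Symbols give the replicate and bars the mean and SD, and in all 4 panels the 2 groups do not overlap.

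The steps used only in gluconeogenesis included the member with the smallest p. Fbp1 is fructose bisphosphatase 1, which takes a phosphate off fructose bisphosphate and so undoes the work of phosphofructokinase. Its signals were 1.15, 1.70, 1.25 and 0.40 in fasted replicates 1 to 4, against 0.11, -0.12, -0.42 and -0.20 in fed replicates 1 to 4. All fasted arrays lay above all fed arrays, fasted replicate 4 being closest to them. The means were 1.13 ± 0.54 in the fasted arrays and -0.16 ± 0.22 in the fed arrays (SD, n = 4 per group). The difference of 1.29 (SE 0.26) is 2.44-fold and had an adjusted p of 0.787 in limma's fit. Its probe lies on chromosome 13 from 62966175 to 62966234 in mm9.

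Fbp2, the isoform known from muscle, is the neighbouring gene on chromosome 13. Its signals were 1.67, 1.58, 1.42 and 0.82 in fasted replicates 1 to 4, against 0.72, 0.22, 0.83 and 0.43 in fed replicates 1 to 4. The groups overlapped only where fasted replicate 4 met fed replicate 3, and the difference was 0.82 (SE 0.26). Slc37a4 carries glucose 6-phosphate into the endoplasmic reticulum, where the phosphatase acts. It had 1.77, 1.84, 0.99 and 0.49 in fasted replicates 1 to 4, against 1.20, -0.08, 0.50 and 0.21 in fed replicates 1 to 4. Fasted replicates 3 and 4 lay within the fed range, and the difference was 0.82 (SE 0.33), or 0.48 without fed replicate 2. A further Slc37a4 probe was well above background on only 2 arrays.

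The other bypass enzymes gave smaller differences with larger errors. Pcx, pyruvate carboxylase, which makes oxaloacetate in mitochondria, had 0.75, -0.68, 0.83 and -0.17 in fasted replicates 1 to 4, against 1.50, 0.79, 0.47 and -0.02 in fed replicates 1 to 4. The groups overlapped, with a difference of -0.50 (SE 0.44) that was -0.09 without fasted replicate 2, -0.24 without fed replicate 1 and -0.82 without fasted replicate 3. Pck1, the cytosolic phosphoenolpyruvate carboxykinase, had -4.03, -2.22, -4.17 and -3.61 in fasted replicates 1 to 4, against -3.11, -4.32, -3.59 and -4.30 in fed replicates 1 to 4. It was well above background on only 2 fasted and 2 fed arrays, and the difference of 0.32 (SE 0.58) was smaller than its error. Pck2, the mitochondrial form, was also well above background on 2 fasted and 2 fed arrays, with a difference of -0.21 (SE 0.63). G6pc, the catalytic subunit of glucose 6-phosphatase, had -1.31, -1.38, -5.08 and -1.67 in fasted replicates 1 to 4, against -4.25, -3.04, -1.85 and -1.58 in fed replicates 1 to 4. It was well above background on 3 fasted and 2 fed arrays, and differed by 0.32 (SE 0.98). Of the 7 genes at these steps 5 were thus higher and 2 lower.

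The widest difference among the members was that of the fructose enzyme Khk. Khk, ketohexokinase, phosphorylates fructose without the feedback that holds back phosphofructokinase. Its signals were 4.17, 4.22, 3.53 and 3.36 in fasted replicates 1 to 4, against 3.11, 1.59, 2.33 and 2.65 in fed replicates 1 to 4. No fasted array overlapped with a fed one, fasted replicate 4 and fed replicate 1 being nearest. The means were 3.82 ± 0.44 in the fasted arrays and 2.42 ± 0.64 in the fed arrays (SD, n = 4 per group). The difference was 1.40 (SE 0.34), or 2.64-fold, with an adjusted p of 0.787 in limma's fit. The probe lies on chromosome 5 from 31233555 to 31233614 in mm9. A dimmer Khk probe from 31229105 to 31229164 had 0.87, 1.07, -0.83 and 1.01 in the fasted arrays, against -0.37, -1.44, 0.09 and 0.25 in the fed arrays. There the difference was 0.89 and the groups overlapped, fasted replicate 3 standing low.

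Phosphoglucomutase joins glucose phosphates to glycogen and galactose metabolism. Both genes named for it in the files had a higher mean in fasted crypts. The gene named Pgm2 in the files, on chromosome 4, had 2.24, 1.94, 1.85 and 0.89 in fasted replicates 1 to 4, against 1.31, 0.62, 0.70 and 0.64 in fed replicates 1 to 4. Fasted replicate 4 lay within the fed range, and the difference was 0.91 (SE 0.28). The gene named Pgm1, on chromosome 5, differed by 0.47 (SE 0.34) with overlapping groups. Between fasted and fed replicate 4, which shared a slide, its difference was -0.20.

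Regulation of phosphofructokinase gave values in both directions. The bifunctional enzymes Pfkfb1 to Pfkfb4 make and break down the sugar bisphosphate that activates phosphofructokinase. Pfkfb1 and Pfkfb2 were not well above background on any array. Pfkfb4 had 2.44, 2.18, 3.14 and 2.46 in fasted replicates 1 to 4, against 0.90, 1.92, 2.06 and 2.00 in fed replicates 1 to 4. The groups did not overlap, fed replicate 1 lay far below the other fed arrays, and the difference was 0.84 (SE 0.27). A second, dimmer Pfkfb4 probe, well above background on 4 fasted and 3 fed arrays, had -1.26, -1.54, -1.15 and -1.24 in the fasted arrays, against -5.24, -2.66, -2.89 and -2.24 in the fed arrays. The groups did not overlap, and the difference of 1.96 was 1.30 without fed replicate 1, the lowest array.

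Pfkfb3, the isoform known for its strong kinase activity and its part in proliferating cells, had the most negative difference of the members. Its signals were 1.22, 0.72, 2.34 and 1.43 in fasted replicates 1 to 4, against 2.23, 2.40, 2.67 and 1.56 in fed replicates 1 to 4. Fasted replicates 1, 2 and 4 lay below all fed arrays and fasted replicate 3 among them. The difference was -0.79 (SE 0.37), 0.58-fold, and a second probe gave -1.04. Within the slides the fasted array was lower by unequal amounts, with differences of -1.02, -1.95 and -0.12.

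Among the phosphofructokinases themselves, Pfkp, the platelet form, had 1.79, 1.85, 1.43 and 1.65 in fasted replicates 1 to 4, against 0.41, 1.34, 1.04 and 1.23 in fed replicates 1 to 4. The groups did not overlap and the difference was 0.67 (SE 0.25), or 0.43 without fed replicate 1, but this rests on the probe. The second Pfkp probe, on chromosome 13 from 6579124 to 6579183, had -0.01, -0.25, 0.71 and -0.57 in the fasted arrays, against 1.02, 0.70, 0.06 and -0.16 in the fed arrays. It gave -0.44, and the median over both probes gave 0.12. The brighter probe crosses a splice junction, as its mm9 coordinates run from 6581718 to 6583872 on the minus strand of chromosome 13 for 60 bases. The coordinates of the Pfkp, Fbp2 and second Pfkfb3 probes span introns, so their sequences, shown here as the oligos behind these values, are exonic.
Pfkp: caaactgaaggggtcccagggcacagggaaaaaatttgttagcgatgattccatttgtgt
Fbp2: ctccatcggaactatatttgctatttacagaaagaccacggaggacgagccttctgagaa
Pfkfb3: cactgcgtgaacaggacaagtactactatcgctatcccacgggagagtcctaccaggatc

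Pfkl, the liver form, had 1.61, 1.24, 1.48 and -0.10 in fasted replicates 1 to 4, against 0.96, 0.29, 0.81 and 0.24 in fed replicates 1 to 4. Fasted replicate 4 was the lowest of the 8 arrays while the other fasted arrays were the highest. The difference of 0.48 (SE 0.38) ranged from 0.05 with array weights to 0.86 without fasted replicate 4, and was 0.23 without fasted replicate 3. Pfkm, the muscle form, had -0.38, -0.40, -1.75 and -0.49 in fasted replicates 1 to 4, against -0.91, -1.35, -0.44 and -1.09 in fed replicates 1 to 4. Its difference of 0.19 (SE 0.38) was within the spread of the arrays.

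**Figure D3:**
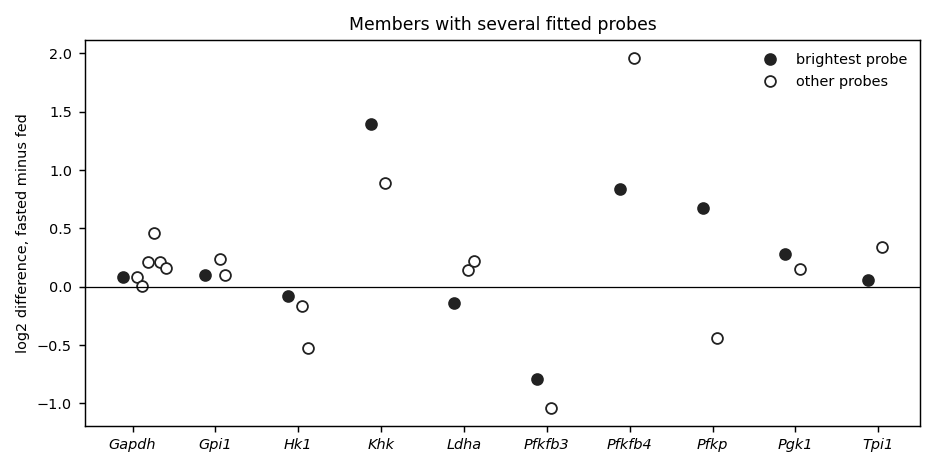
Log2 difference between fasted and fed crypts (vertical axis) for each fitted probe of the 10 members with several, the brightest probe filled and the others open. The probes of Pfkp and Ldha lie on both sides of 0, and those of the other 8 genes on one side.

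Glucose entry was the group with the fewest higher members, 1 of 3. Slc2a1, the glucose transporter known from most dividing cells, had -0.24, 0.75, 0.38 and 0.79 in fasted replicates 1 to 4, against 0.39, 0.77, 1.47 and 1.08 in fed replicates 1 to 4. The fasted arrays lay lower on average but within the fed range for 2 of the arrays, and the difference was -0.51 (SE 0.28). Hk1, the hexokinase found in most tissues, had 4.74, 4.73, 5.35 and 4.75 in fasted replicates 1 to 4, against 5.27, 4.99, 4.82 and 4.81 in fed replicates 1 to 4. Its difference of -0.08 (SE 0.20) turned to 0.15 with quantile normalization, while its other probes gave -0.16 and -0.52, with overlapping groups. Hk2, the isoform induced by growth and hypoxia, had 0.24, 0.62, 2.96 and 0.82 in fasted replicates 1 to 4, against 0.12, 1.36, 1.27 and 1.30 in fed replicates 1 to 4. Fasted replicate 3 alone was high, so the difference of 0.15 (SE 0.49) became -0.37 without it.

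The reversible steps, which serve both directions, were all higher in fasted crypts, though most by little: 9 of 9 with differences from 0.06 to 0.64. Aldoc, the aldolase known from brain, had 1.76, 1.56, 1.22 and 1.26 in fasted replicates 1 to 4, against 1.23, 0.58, 0.51 and 0.91 in fed replicates 1 to 4. The groups overlapped only where fasted replicate 3 met fed replicate 1, and the difference was 0.64 (SE 0.22). Pgam1, phosphoglycerate mutase, had 3.51, 3.20, 3.31 and 2.32 in fasted replicates 1 to 4, against 2.77, 2.63, 2.42 and 2.19 in fed replicates 1 to 4. Fasted replicate 4 lay within the fed range, and the difference was 0.58 (SE 0.24).

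Pgk1, phosphoglycerate kinase, had 2.28, 2.40, 2.37 and 2.28 in fasted replicates 1 to 4, against 1.94, 2.17, 2.03 and 2.07 in fed replicates 1 to 4. The groups did not overlap, the arrays of each lay close together, and the difference was 0.28 (SE 0.16). The files place this probe on chromosome 3 and the gene is on X, so transcripts of a near-identical copy cannot be told apart from it. A dimmer Pgk1 probe, placed on X and well above background on all 8 arrays, gave 0.15 with overlapping groups. The lack of overlap thus rests on the probe. By their brightest probes, the other enzymes of these steps differed by 0.30 or less: Aldoa by 0.26, the muscle enolase Eno3 by 0.30 and Eno1 by 0.14. The isomerases Gpi1 and Tpi1 differed by 0.10 and 0.06, and a second Tpi1 probe gave 0.34 with overlapping groups. Gapdh, often taken as a control gene, differed by 0.08 (SE 0.14), and its 7 probes, whose accessions also name look-alike genes such as Gm12070, gave 0.00 to 0.46.

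At the pyruvate end, Gpt, alanine aminotransferase, which turns alanine to pyruvate, showed the largest value. It had 2.39, 2.67, 0.99 and 1.61 in fasted replicates 1 to 4, against 0.90, 0.10, 0.85 and 1.04 in fed replicates 1 to 4. Fasted replicate 3 lay just within the fed range, and the difference was 1.19 (SE 0.38), or 2.29-fold. Pklr, the pyruvate kinase of liver and red cells, had 3.17, 2.90, 3.26 and 2.52 in fasted replicates 1 to 4, against 2.87, 2.27, 2.52 and 2.57 in fed replicates 1 to 4. Pkm2, the isoform gene of muscle and dividing cells, had 3.67, 3.47, 3.77 and 3.20 in fasted replicates 1 to 4, against 3.21, 3.31, 3.26 and 2.99 in fed replicates 1 to 4. Their differences of 0.40 (SE 0.23) and 0.33 (SE 0.18) went with overlapping groups, and were 0.27 and 0.21 without fasted replicate 3.

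Ldha, the lactate dehydrogenase that favours lactate, had 5.89, 6.15, 5.86 and 5.96 in fasted replicates 1 to 4, against 6.06, 6.04, 6.43 and 5.87 in fed replicates 1 to 4. Its difference of -0.14 (SE 0.17) is within the spread, its 2 other probes gave 0.14 and 0.22, and quantile normalization gave 0.18, so no direction can be given. Ldhb, its partner known from oxidative tissue, was well above background on only 2 fasted and 2 fed arrays and differed by 0.09 (SE 0.88).

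The aspartate and malate enzymes carry carbon and reducing equivalents between cytosol and mitochondria. Got1, the cytosolic aspartate aminotransferase, had 0.40, 0.62, 0.55 and -0.24 in fasted replicates 1 to 4, against -0.66, -0.33, -0.72 and -0.52 in fed replicates 1 to 4. The groups did not overlap, and means were 0.33 ± 0.39 in the fasted arrays and -0.56 ± 0.17 in the fed arrays (SD, n = 4 per group). The difference was 0.89 (SE 0.25), or 1.85-fold, and the probe lies on chromosome 19 from 43574278 to 43574337 in mm9. The mitochondrial Got2 differed by -0.12 (SE 0.27), and the malate dehydrogenases Mdh1 and Mdh2 by 0.18 (SE 0.19) and -0.11 (SE 0.14).

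**Figure D4:**
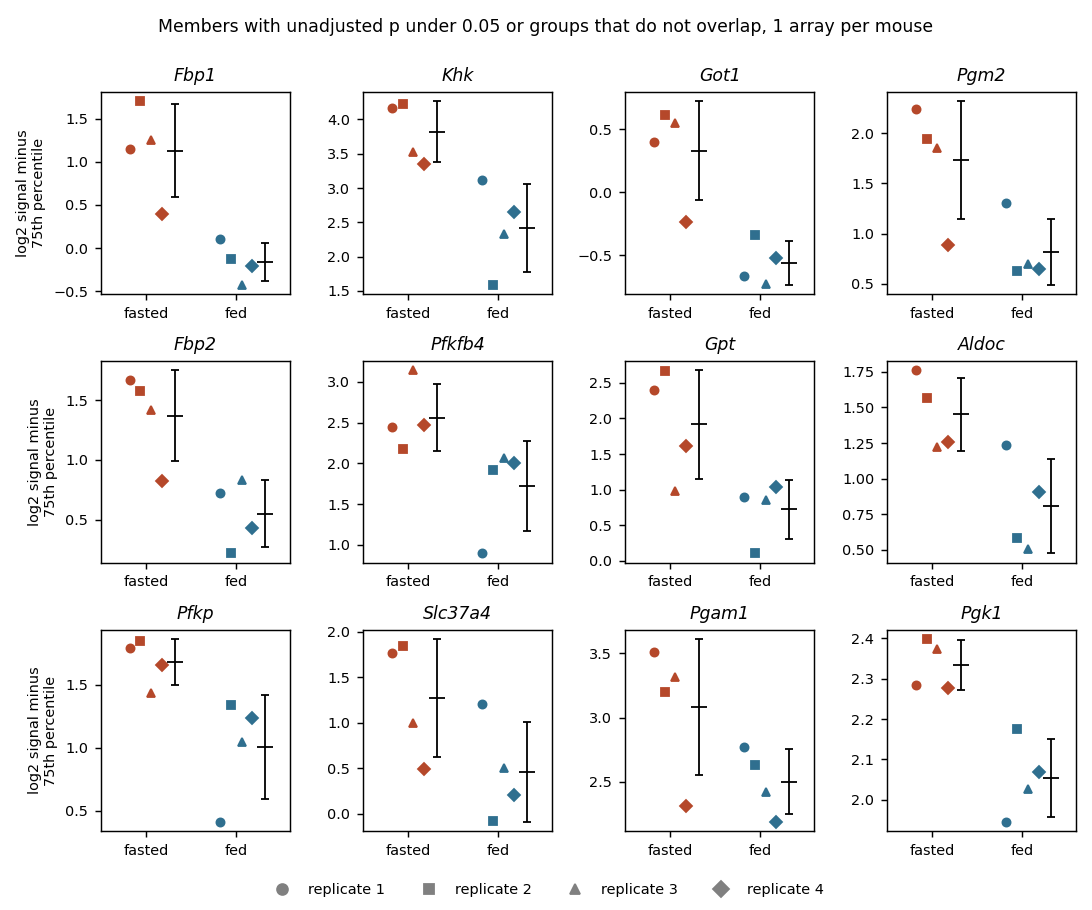
Log2 signal minus the array's 75th percentile (vertical axes, each panel with its own range) on the 4 fasted and 4 fed arrays for the 11 members with an unadjusted p under 0.05 and Pgk1. Symbols give the replicate and bars the mean and SD; Fbp1, Khk, Got1, Pfkfb4, Pfkp and Pgk1 show no overlap between the groups.

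Among the 11 members with an unadjusted p under 0.05, some arrays stood repeatedly at the edge of their group. Fasted replicate 4 was the lowest fasted array in 7 of them and fasted replicate 2 the highest in 6. Among the fed arrays replicate 1 was highest in 6 and replicate 2 lowest in 5. These 11 are described here only, since the same fit picked them.

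Slides gave a comparison between arrays processed side by side. The 3 shared slides paired fasted replicate 1 with fed replicate 1, fasted replicate 2 with fed replicate 3, and fasted replicate 4 with fed replicate 4. Fasted replicate 2 was labelled male and fed replicate 3 female. Fasted and fed replicate 4 were both labelled female, but the Xist signal of fed replicate 4 went against that label. In both of these pairs group and sex thus cannot be told apart. Each of the 11 members was higher on the fasted array of all 3 slides, with medians of 1.05, 1.24 and 0.39. They were picked by a fit that used these same arrays, so this is no separate check. The last pair gave the smallest difference in 10 of the 11, Pfkfb4 being the exception. For Fbp1 the differences were 1.05, 2.13 and 0.60, for Khk 1.06, 1.89 and 0.71 and for Got1 1.06, 1.34 and 0.28. Over the 36 members, 25, 27 and 22 were higher on the 3 slides and the medians were 0.34, 0.26 and 0.11, against -0.07, -0.04 and 0.00 over all genes. Of the 36, 15 were higher on all 3 slides and 5 lower on all 3, which was not counted over all genes. In a fit that took slide instead of sex as its covariate, 0 genes passed, Fbp1 was at 1.26, Khk at 1.22 and the members' median at 0.28.

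**Figure D5:**
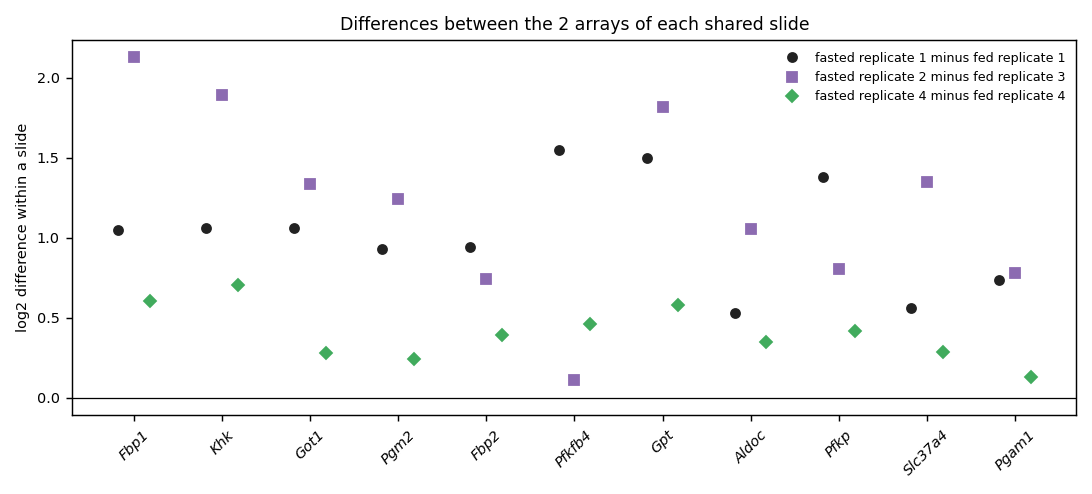
Log2 difference between the fasted and the fed array of each shared slide (vertical axis) for the 11 members with an unadjusted p under 0.05. The 11 were picked by a fit that used these same arrays. All points lie above 0, and the pair of fasted replicate 4 and fed replicate 4 lies lowest for all but Pfkfb4.

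By labelled sex, 26 of 36 members were higher in fasted males, 24 in fasted females and 19 in both. Fbp1 differed by 1.44 in males and 1.14 in females, Khk by 1.85 and 0.95, and Gpt by 2.03 and 0.36. Whether the sexes differ was not tested, and the female values hold the array whose transcripts went against its label. Without that array Fbp1, Khk and Got1 remained at 1.36, 1.55 and 0.95.

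Other genes around these steps were read from the same fit. Of 88 listed genes on the array 77 were tested, 53 higher and 24 lower in fasted crypts, where 44.4% of all genes were higher. Their median log2 difference was 0.24, or 0.09 without fasted replicate 3. Limma's test called 0 of the 77, against 0% of all genes. An unadjusted p under 0.05 was found for 8, 7 higher and 1 lower. At that level 3.93% of all genes were higher and 2.02% lower. Fructose and hexose genes had a median of 0.49, with 9 of 10 higher, the pentose phosphate pathway 0.14 with 5 of 8, and glycogen and galactose genes 0.10 with 9 of 15.

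Dak, the triokinase that completes fructose breakdown, differed by 1.15 (SE 0.38), with within-slide values of 0.94, 1.89 and 0.03. Slc5a1, the sodium-coupled glucose transporter of the brush border, differed by 0.83 (SE 0.31). Hkdc1, a hexokinase-like gene, differed by 1.35 (SE 0.47), its groups not overlapping.

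Ppargc1a, a coactivator known to induce gluconeogenic genes in liver, had -0.25, 0.54, -1.08 and -0.24 in the fasted arrays, against -0.71, -2.34, -0.91 and -2.27 in the fed arrays. One fasted array overlapped with the fed ones, and the difference was 1.30 (SE 0.49). Pdp2, a phosphatase that activates pyruvate dehydrogenase, differed by 0.65 (SE 0.22) with no overlap, and the phosphoglucomutase-like Pgm5 by 1.09 (SE 0.44). Ppp1r3b, which targets a phosphatase to glycogen, was the 1 of the 8 with an unadjusted p under 0.05 that was lower, by a log2 difference of -0.60 (SE 0.22).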

How the data were processed

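RNA from lower crypts of 8 mice was read on arrays of 1 colour (Cy5, per the labels' protocols). Per the file headers, the authors used Agilent Feature Extraction 11.5.1.1 to turn each spot into linear intensity values, among them a processed signal already corrected for background. The authors' deposited matrix holds log2 values with column medians of 7.73 to 8.33 that order the probes nearly as the processed signal does. Its scaling and centring are unknown, so it served as an alternative.

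From these, control spots and outlier-flagged spots (2 to 146 probes per array) were left out, spots of a probe averaged, and log2 signals set relative to each array's 75th percentile. Probes clear of background on 4 or more of the 8 arrays were kept, and the brightest stood for a gene under its file name. Of 39429 probes 27649 had an accession in the RefSeq table, used for names and chromosomes, as had 53 of the members' 57. The model (limma 3.58.1, R 4.3.3, lmFit and eBayes with a trend) held group and the labelled sex, and p-values were adjusted by Benjamini-Hochberg over all genes, with 0.05 as the threshold. The fit was tested on simulated data. No 2 arrays held identical values, and the number of arrays limits precision.

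Alternatives covered scaling, background correction (normexp, offset 50), the deposited matrix, filters, probe rules, covariates, the variance model, single arrays left out and a looser threshold (0.1). The members and lists were chosen with earlier results of these data known. Values on each array are given for members whose groups did not overlap or that had an unadjusted p under 0.05, and for 15 genes of the controlled steps and Pfkfb3, the last added after its values were seen. Other pathway genes are named by the 8 smallest p among those meeting the same criteria, of which 1 is not reported here. The deviations of same-numbered fasted and fed arrays had correlations of 0.37, -0.47, -0.45 and 0.61, so the numbers were not taken to pair the mice. The positive values belong to arrays of a shared slide, as does that of fasted replicate 2 with fed replicate 3, at 0.54. Pairs on different slides ran from -0.51 to 0.50. With slide as a random block the correlation within slides was 0.70, and the main model held no slide term.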

Additional observations from a re-analysis of the deposited data

Results flagged for a closer look

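In 7 of 72 groups of 4 arrays, 1 array lay far from the others of its group by Dixon's test, where chance gives about 1 in 20 groups. Fasted replicate 3, the array with the lowest correlations to the rest, was the distant one for 3 members. It was high for Hk1, at 5.35 against 4.73 to 4.75 in the other fasted arrays, and low for Pfkm, at -1.75 against -0.49 to -0.38, and for G6pc, at -5.08 against -1.67 to -1.31. Fed replicate 1 was the distant one for the other 4. It was high for Pgm2, at 1.31 against 0.62 to 0.70 in the other fed arrays, and low for Pfkfb4, at 0.90 against 1.92 to 2.06, for Gapdh, at 5.93 against 6.29 to 6.34, and for Hk2, at 0.12 against 1.27 to 1.36.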

How the results depend on the processing

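Limma's test passed 0 genes and 0 members under every alternative run, the threshold of 0.1 included. The members' median log2 difference stayed above 0 in each, lowest with array weights at 0.21, and 25 to 31 members were higher. Leaving out 1 array at a time gave medians of 0.22 to 0.39 and 25 to 29 higher members. With replicate number as a block the median was 0.29, 28 members were higher and no call changed, since there was none. Genes with an unadjusted p under 0.05 numbered 1159, against 2537 with slide as a fixed block (2 residual degrees of freedom), 3060 with slide as a random block, 1899 with array weights, 2066 without fasted replicate 4 and 463 without fasted replicate 1. The members among them numbered 11, against 14, 15, 11, 13 and 7 in the same order, and 8 with median scaling. With no sex term 1313 genes had such a p, 9 of them members. A fit with the sex label of fed replicate 4 changed was not run. In limma's test the smallest adjusted p was 0.787, against 0.113 with slide as a fixed block and 0.148 with slide as a random block. Of 23 members with values on each array by the fixed rule, 17 kept their sign in all settings, while Hk1, Hk2, Pfkm, Ldha, Pck1 and G6pc did not. The median over probes gave 1.40 for Pfkfb4 and 0.12 for Pfkp, and Ldha turned to 0.18 with quantile normalization. Signals near background limit Pck1, Pck2, Ldhb and G6pc.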
